A study of Mus musculus with 30 samples.

Results

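GABA and glutamate receptor subunit genes were followed across the hypothalamus and the eye of wild-type (WT) and Per3-/- mice. The members were every gene whose name on the array is that of a GABA-A, GABA-B, AMPA, kainate, NMDA or metabotropic glutamate receptor subunit, without Grm6, Grina and the Gabarap genes. They comprised 43 genes of the 28146 gene names on the array, with 85 of its 41174 probes that are not controls. The study compared WT and Per3-/- littermates, adult males on a C57Bl/6J background. Per3-/- mice carry an inserted cassette in the clock gene Per3, in place of an exon and the adjoining intron. Every mouse, of either genotype, had come from a standard light cycle through 17 cycles of 3.5 h light and 3.5 h dark and was killed during the final light phase, so no group without this light regime was compared. The hypothalamic samples came from 8 WT and 8 Per3-/- mice and were blocks cut around the optic chiasm, so they hold the suprachiasmatic nucleus together with neighbouring brain. The eye samples came from 7 WT and 7 Per3-/- mice and were whole eyes, so retina, lens, cornea and attached muscle were measured together. Each mouse and tissue had 1 array with 1 label (Cy3), with no pooling.

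GABA-A receptors are pentameric chloride channels, usually of alpha, beta and gamma or delta subunits, and carry fast and tonic inhibition. The rho subunits form a GABA-gated chloride channel that is best known from retinal bipolar cells. GABA-B receptors and the metabotropic glutamate receptors act through G proteins, while AMPA, kainate and NMDA receptors are glutamate-gated cation channels. In the retina, photoreceptors and bipolar cells release glutamate, and horizontal and amacrine cells release GABA. Most neurons of the suprachiasmatic nucleus release GABA and receive glutamate from the retina.

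The array reads each gene through 60-base probes, and a few that carry the tissue contrasts are shown because they are the sequences that were measured. The Gabrr2 and Grin2d probes gave more signal in the eye, and those of Gabra5, Grik2, Grin1 and Gabbr1 gave more in the hypothalamus. Positions are on mouse assembly mm9, as in the array files.
Gabrr2, plus strand, chr4:33164463-33168328, a span longer than the probe: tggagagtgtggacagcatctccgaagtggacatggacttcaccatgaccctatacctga
Grin2d, minus strand, chr7:53088243-53088302: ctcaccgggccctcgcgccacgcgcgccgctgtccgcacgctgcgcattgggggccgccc
Gabra5, minus strand, chr7:64744503-64744562: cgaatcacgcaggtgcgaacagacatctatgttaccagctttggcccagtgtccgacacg
Grik2, minus strand, chr10:48852545-48852604: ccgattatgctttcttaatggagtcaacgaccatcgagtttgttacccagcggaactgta
Grin1, minus strand, chr2:25151568-25151627: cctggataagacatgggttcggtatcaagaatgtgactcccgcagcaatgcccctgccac
Gabbr1, plus strand, chr17:37209174-37209232: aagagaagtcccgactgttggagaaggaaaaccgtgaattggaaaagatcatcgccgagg

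The promoters of both rho genes and of Grin1 are shown because the rho genes were the GABA-A genes with the largest excess in the eye and Grin1 is the obligatory NMDA subunit. They run from 250 bases before to 30 bases after the RefSeq start on GRCm38.p6. Capitals mark TAATCC (or its reverse GGATTA), the core bound by the retinal factor CRX, and CACGTG, the E-box core bound by clock factors, searched on both strands. The RefSeq table held promoters of 30 of the 43 genes. TAATCC or its reverse was present in this window for Gabrr2 and Gabra2 and in 6.77% of all 32851 promoters, and CACGTG for Grin1 and in 6.79%.
Gabrr1, plus strand, chr4:33132306-33132585: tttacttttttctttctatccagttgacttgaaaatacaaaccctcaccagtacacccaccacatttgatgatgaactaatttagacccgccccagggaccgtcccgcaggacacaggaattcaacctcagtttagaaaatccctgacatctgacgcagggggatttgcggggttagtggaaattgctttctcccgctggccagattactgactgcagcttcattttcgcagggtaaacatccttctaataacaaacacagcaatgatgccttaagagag
Gabrr2, plus strand, chr4:33062862-33063141: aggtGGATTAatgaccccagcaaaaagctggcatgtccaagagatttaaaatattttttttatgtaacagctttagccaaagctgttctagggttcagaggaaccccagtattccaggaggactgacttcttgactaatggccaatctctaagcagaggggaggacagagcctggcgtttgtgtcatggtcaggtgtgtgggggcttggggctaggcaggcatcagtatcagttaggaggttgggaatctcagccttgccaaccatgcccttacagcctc
Grin1, minus strand, chr2:25319158-25319437: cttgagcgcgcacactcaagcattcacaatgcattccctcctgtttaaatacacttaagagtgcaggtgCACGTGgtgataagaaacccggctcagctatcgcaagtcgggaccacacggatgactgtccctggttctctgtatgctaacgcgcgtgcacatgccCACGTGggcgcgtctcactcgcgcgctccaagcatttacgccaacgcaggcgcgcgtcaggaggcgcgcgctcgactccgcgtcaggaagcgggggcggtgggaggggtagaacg

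Signals are given as log2 of the background-subtracted intensity relative to the 75th percentile of the array, so 0 is that percentile. The percentile lay between 1131 and 2207 intensity units, and 68.0% to 80.7% of the probes of an array passed the scanner software's test for a signal well above background. The Per3 probe had signal in both genotypes and was lower in Per3-/- mice by 0.51 in the hypothalamus and 0.45 in the eye on the log2 scale. It reads a part of Per3 whose relation to the replaced stretch is not given in the sources used here. Tissue markers separated the samples. The mean over 11 photoreceptor genes was -7.06 to -6.55 on hypothalamic arrays and 3.39 to 3.75 on eye arrays, with 4 of the 11 not above background on any hypothalamic array of a genotype. The mean over 12 hypothalamic genes was -0.02 to 0.41 on hypothalamic arrays and -5.21 to -4.51 on eye arrays, and 1 of the 12, Otp, was not above background in the hypothalamus. The mean over 14 neuronal genes was 3.85 to 4.03 on hypothalamic and 1.42 to 1.68 on eye arrays. The mean over 5 pituitary genes stood apart in Per3-/- mouse 1 (7.19) and WT mouse 5 (1.99) of the hypothalamus, against -3.03 to -1.28 in the other 14, and the hypothalamic counts are also given without these arrays. The choroid plexus list (5 genes) ranged from -2.64 to 1.23 among the hypothalamic arrays of both genotypes. No slide held both tissues, so tissue and hybridisation run cannot be told apart, and in these bulk samples fewer cells of a type and less RNA per cell cannot be told apart either.

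In WT mice, 34 of the 43 genes had more signal in the hypothalamus and 7 in the eye at an adjusted p under 0.05 (limma, Benjamini-Hochberg over all probes, 1 brightest probe per gene). Over all probes, 33.3% were called higher in the hypothalamus and 41.6% higher in the eye. The fit treated both tissues of a mouse as independent samples. With the replicate number as a block (7 pairs), 31150 of the 41174 probes were called, against 30846 without it. The median log2 difference (eye minus hypothalamus) was -2.80 over the 43 genes and 0.15 over all probes. Over the 14 neuronal genes it was -2.63, with 13 called higher in the hypothalamus and 1 in the eye, and the part of a lower neuronal share in the members' differences was not tested. The signals of both tissues did not overlap for 36 of the 43 genes, against 56.2% of all probes. Without WT mouse 5 of the hypothalamus the counts of genes called were 34 and 7 as well. The genes higher in the eye were Gabrr1, Gabrr2, Gabrp, Gabre, Gabbr2, Grin2d and Grin3a, and Gabra6 and Grik3 were not called. Gabrr3 has no probe among the members. In the hypothalamus 38 of the 43 genes were well above background on all 16 arrays, and in the eye 34 on all 14 arrays.

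**Figure D1:**
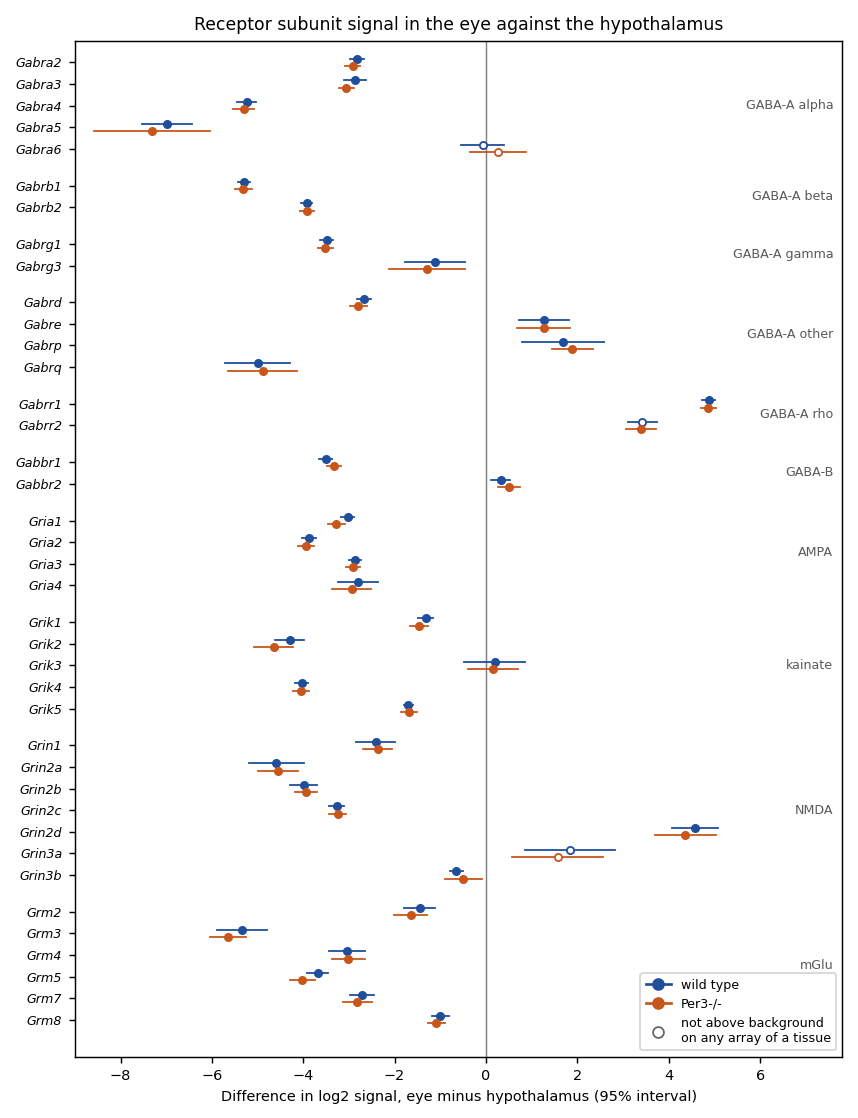
Difference in log2 signal between eye and hypothalamus for the brightest probe of 39 genes, in WT (blue) and Per3-/- mice (orange), with 95% intervals from limma; a positive value is higher in the eye, and open points mark genes not well above background on any array of at least 1 tissue. Most genes lie left of 0, Gabrr1, Gabrr2 and Grin2d lie far to the right, and both genotypes lie close together.

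The GABA-A alpha subunits, which hold the GABA site together with beta, were lower in the eye for 5 of 6 genes. Gabra5 forms extrasynaptic receptors in the hippocampus. Its log2 signal in WT mice ran from -0.16 to 0.29 in hypothalamic samples (median -0.06) and between -7.70 and -5.36 in eyes (median -7.08), and 1 of the 7 eyes was well above background. The difference was -6.98 (SE 0.26, adjusted p = 6.88e-13 from limma), a size that rests on eye signals mostly not well above background. The other Gabra5 probe, printed above, was well above background in all 7 WT eyes and differed by -4.61 (SE 0.17). The direction was therefore the same with a probe that was measured on both sides, and its size was smaller. Gabra4, a partner of delta in tonic inhibition, ran from 4.06 to 4.49 in hypothalamic samples (median 4.20) and between -1.33 and -0.71 in eyes (median -1.10), a difference of -5.24 (SE 0.10, 37.7-fold, adjusted p = 1.83e-16 from limma). Gabra2 and Gabra3 had differences of -2.82 and -2.87. Gabra6, known from cerebellar granule cells, did not rise above background in any sample.

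Gabrb1, a beta subunit, ran from 2.72 to 2.93 in hypothalamic samples (median 2.81) and between -2.58 and -2.26 in eyes (median -2.55) of WT mice, a 39.2-fold difference (log2 -5.29, SE 0.06, adjusted p = 1.43e-18 from limma). Gabrb2 differed in the same direction by -3.93 (SE 0.06). Among the gamma subunits, which place receptors at synapses, Gabrg1 differed by -3.48 (SE 0.07). Gabrg3 differed by -1.12 (SE 0.31) and was well above background in 6 of 7 WT eyes.

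Gabrd encodes the delta subunit of extrasynaptic receptors that answer to low GABA. Its log2 signal ran from 3.33 to 3.78 in hypothalamic samples (median 3.52) and between 0.74 and 1.1 in eyes (median 0.82) of WT mice, with no overlap. The difference was -2.68 (SE 0.07, 6.41-fold, adjusted p = 1.41e-14 from limma), close to the median over the members. Gabrq, the theta subunit known from hypothalamus and brainstem, ran from -2.75 to -2.17 in hypothalamic samples (median -2.44) and between -8.53 and -6.04 in eyes (median -7.64), and 1 of the 7 eyes was well above background. Its difference was -5.0 (SE 0.33, adjusted p = 1.06e-09 from limma), and its size, too, rests on eye signals mostly not well above background. The other minor subunits went the opposite way. Gabrp, the pi subunit known from epithelia, ran from -7.22 to -5.10 in hypothalamic samples (median -5.67) and between -5.41 and -2.79 in eyes (median -3.93), a difference of 1.68 (SE 0.42, adjusted p = 0.00185 from limma) with overlap. Gabre, the epsilon subunit, ran from -5.64 to -5.04 in hypothalamic samples (median -5.25) and between -5.27 and -3.24 in eyes (median -3.88), a difference of 1.27 (SE 0.26, adjusted p = 0.000336 from limma), also with overlap.

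Both rho genes were higher in the eye. Gabrr1 (rho1) ran from -2.60 to -2.33 in hypothalamic samples (median -2.45) and between 2.21 and 2.69 in eyes (median 2.43) of WT mice. The difference was 4.88 (SE 0.07, 29.4-fold, adjusted p = 8.22e-18 from limma) with no overlap, and every WT sample was well above background. Gabrr2 (rho2), the neighbour of Gabrr1 on chromosome 4, ran from -3.46 to -3.11 (median -3.26) in the eye. In the hypothalamus it ran from -7.22 to -6.26 (median -6.75) and was not well above background in any WT mouse, so it was at least 8.75-fold higher in the eye (adjusted p = 4.07e-12 from limma). The bipolar list (8 genes) lay at 0.77 to 0.99 on eye arrays and at -5.49 to -4.86 on hypothalamic arrays, and of its genes 3 in WT and 4 in Per3-/- mice did not rise above background in any hypothalamus. The part of these cells in the rho signal was not tested.

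**Figure D2:**
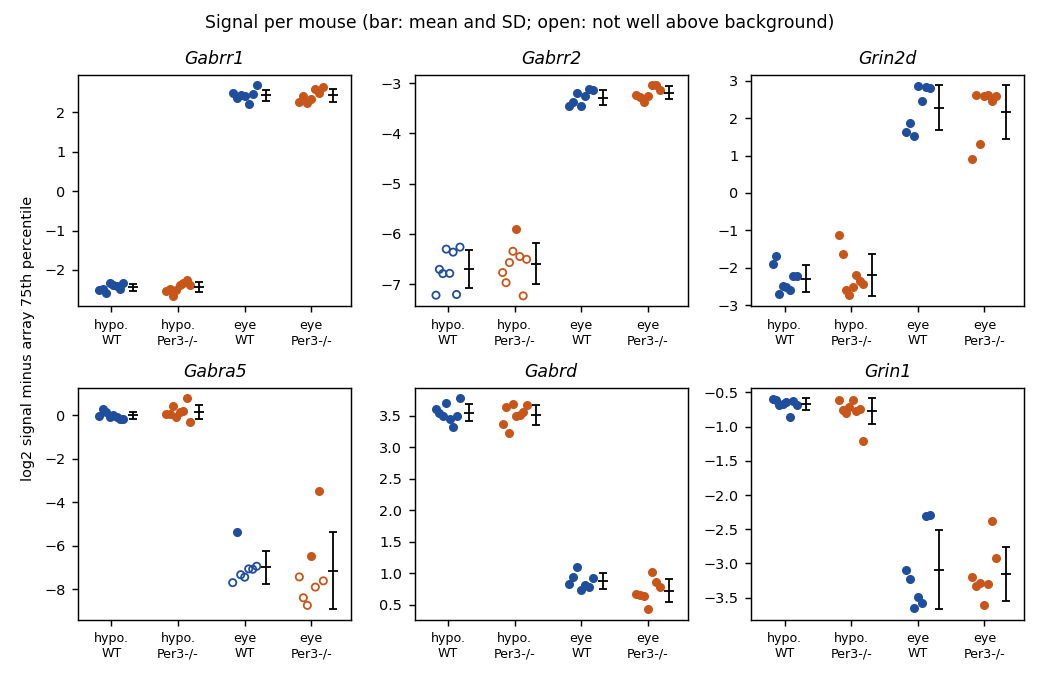
Log2 signal of each mouse in the 4 groups for 6 genes, relative to the 75th percentile of its array; bars give the mean and SD, and open circles mark arrays not well above background. Gabrr1, Gabrr2 and Grin2d are higher in every eye than in any hypothalamus, and Gabra5, Gabrd and Grin1 are lower in every eye, while WT and Per3-/- mice overlap in every panel.

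The GABA-B receptor is an obligatory pair of the subunits Gabbr1, which binds GABA, and Gabbr2, which couples to the G protein. The brightest Gabbr1 probe was lower in the eye by 3.51 on the log2 scale (-3.51, SE 0.07), and the Gabbr1 probe printed above by a similar amount (-3.46, SE 0.07). The brightest Gabbr2 probe ran from -0.66 to -0.24 in hypothalamic samples (median -0.41) and between -0.39 and 0.20 in eyes (median -0.08), a difference of 0.32 (SE 0.10, adjusted p = 0.00901 from limma). With arrays scaled to their median in place of the 75th percentile the difference turned to -0.11. The other Gabbr2 probes gave -3.57 (SE 0.14) and -2.30 (SE 0.13), so the direction of Gabbr2 rests on the probe chosen.

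All 4 AMPA subunit genes were lower in the eye. Gria1, Gria2, Gria3 and Gria4 had differences of -3.02 (SE 0.07), -3.87 (SE 0.07), -2.86 (SE 0.06) and -2.80 (SE 0.21) in WT mice. The kainate subunits spread more widely. Grik2, a core channel subunit, ran from -1.53 to -1.08 in hypothalamic samples (median -1.33) and between -6.19 and -5.06 in eyes (median -5.65), a difference of -4.30 (SE 0.15, 19.7-fold, adjusted p = 2.3e-13 from limma), with 7 of 7 WT and 4 of 7 Per3-/- eyes well above background. Grik4 and Grik5, the high-affinity subunits that need a core partner, differed by -4.03 (SE 0.06) and -1.70 (SE 0.05), and Grik1, known from OFF bipolar cells, by -1.32 (SE 0.08). The difference of Grik3 was 0.19 (SE 0.31, adjusted p = 0.599 from limma), with eye values from -6.25 to -3.92 and 5 of 7 WT eyes well above background.

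Grin1, the subunit that every NMDA receptor needs, was lower in the eye. In WT mice it ran from -0.86 to -0.59 in hypothalamic samples (median -0.65) and between -3.65 and -2.29 in eyes (median -3.23), a difference of -2.42 (SE 0.20, 5.35-fold, adjusted p = 1.16e-08 from limma) with no overlap. The GluN2 subunits, which set channel kinetics, split. Grin2a ran from -2.46 to -1.98 in hypothalamic samples (median -2.26) and between -8.39 and -5.88 in eyes (median -6.94), a difference of -4.59 (SE 0.28, adjusted p = 3.45e-10 from limma). Only 2 of the 7 eyes were well above background, so the size of this difference is uncertain. Grin2b and Grin2c differed in the same direction by -3.99 (SE 0.14) and -3.27 (SE 0.08). Grin2d went the other way, from -2.70 to -1.69 (median -2.35) in the hypothalamus to between 1.52 and 2.87 (median 2.46) in the eye, a difference of 4.57 (SE 0.24, 23.8-fold, adjusted p = 3.95e-11 from limma). It has 1 probe, so no other probe bears on it. Of the GluN3 subunits, Grin3a was not well above background in any hypothalamus and was so in 4 of 7 WT eyes. It was at least 1.30-fold higher in the eye. Among eyes, 95.5% of its spread within genotypes lay between slides, with slide means of -6.47, -7.78, -5.67 and -4.91. Grin3b was lower in the eye by 0.65 on the log2 scale (-0.65, SE 0.07).

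All 7 metabotropic glutamate receptor genes among the members were lower in the eye, with a median difference of -3.04. Grm6, which the members leave out, is in the bipolar list. It was well above background on every eye array and on no hypothalamic array. Grm3, a group II receptor of neurons and astrocytes, ran from 0.26 to 0.61 in hypothalamic samples (median 0.45) and between -5.71 and -3.82 in eyes (median -5.02) of WT mice, a difference of -5.33 (SE 0.26, 40.3-fold, adjusted p = 1.74e-11 from limma). Grm5, a group I receptor coupled to phospholipase C, differed by -3.68 (SE 0.11). Of the group III receptors, Grm4, Grm7 and Grm8 differed by -3.04 (SE 0.19), -2.71 (SE 0.12) and -1.0 (SE 0.09), and Grm4 was well above background in 4 of 7 WT eyes. Grm2 differed by -1.45 (SE 0.16).

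The Per3-/- mice, which the comparison above did not use, gave the same 34 genes higher in the hypothalamus and the same 7 higher in the eye, that is 41 genes called in both genotypes with the same sign. The arrays of both genotypes shared slides within each tissue, so this repeat is not independent of slide or hybridisation run. Over all probes 32.9% were called higher in the hypothalamus and 42.1% higher in the eye of Per3-/- mice. The signals of both tissues did not overlap for 36 of the 43 genes, and for 55.1% of all probes. The differences of WT and Per3-/- mice were 0.09 apart in the median and at most 0.35 apart on the log2 scale (Grik2). For example, Gabrr1 differed by 4.87 (SE 0.08), Grin2d by 4.36 (SE 0.31), Gabrd by -2.79 (SE 0.09) and Grin1 by -2.37 (SE 0.15) in Per3-/- mice. Grin3b (-0.50, SE 0.19) lost its call without Per3-/- mouse 5 or 8 of the hypothalamus, which left 33 genes higher there. Without mouse 1, which had the pituitary signal, the counts were 34 and 7. With normexp background correction, Gabrg3 (-0.05), Grm2 (-0.57) and Grin3b (-0.18) were no longer called in Per3-/- mice. Scaling to the array median likewise ended the call of Gabbr2 (0.09).

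Of the 43 genes, 22 have several probes and 21 have 1. Called probes pointed the same way for 18 of the 22, and in opposite directions for Gabbr1, Gabbr2, Gria3 and Grik1. Probes not above background in either tissue of WT mice were left out of this count. Among the 18, Gabrg1 and Grik3 had 1 called probe each, so no other called probe was compared. A Gria3 probe designed to a separate transcript record was higher in the eye by 2.65 (SE 0.09), with values from -5.65 to -4.92 in hypothalamic samples and between -2.70 and -2.50 in eyes of WT mice, while the other Gria3 probes gave -2.86 and -2.83. A Grik1 probe of another transcript record was higher in the eye by 0.90 (SE 0.09), against -1.32 for the brightest probe. A Gabbr1 probe with no position in the array files was higher in the eye by 1.84 (SE 0.20) and was well above background in 3 of 8 WT hypothalami. For Grik3, whose brightest probe showed no call, the other probe was not well above background in any WT eye and was at least 2.13-fold higher in the hypothalamus. Gabrg1, Grik3 and the 4 genes with opposite probes were picked out after their values were seen.

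**Figure D3:**
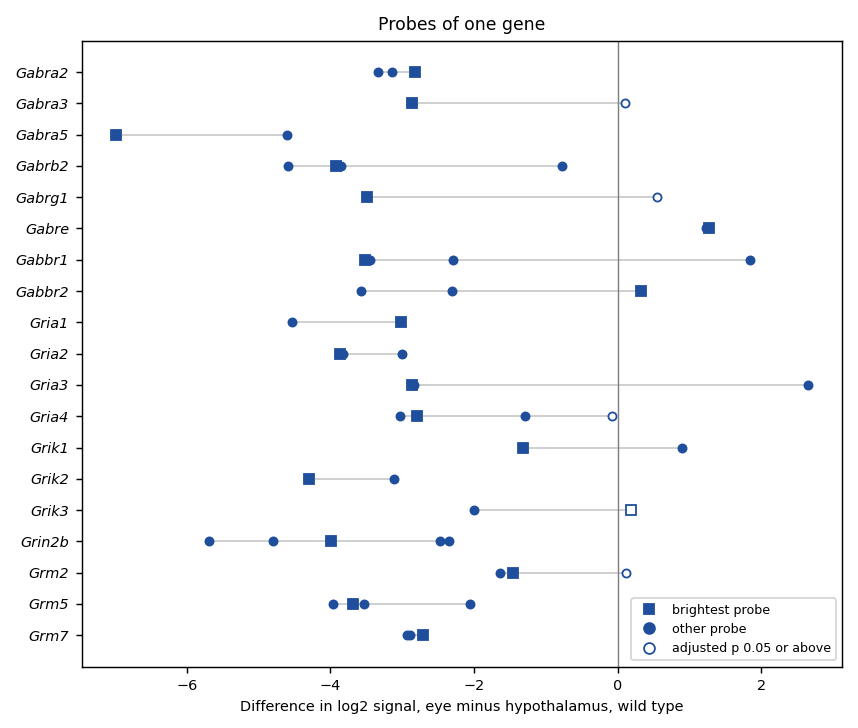
Difference in log2 signal between eye and hypothalamus of WT mice for every probe of 19 genes with several probes; squares are the brightest probe, circles the others, and open symbols have an adjusted p of 0.05 or above. Probes not above background in either tissue are included, and the called probes of Gabbr1, Gabbr2, Gria3 and Grik1 lie on both sides of 0.

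Among eyes, several members moved with the slide. The arrays of the eye lay on 4 slides with mice of both genotypes on each. Once the genotype means were removed, over 70% of the spread lay between slides for 11 of the 43 genes in the eye. In the hypothalamus it did so for 2, Grin2d (84.5%) and Gabrq (76.5%). How many of all probes exceeded 70% was not counted. The median share was 39.1% over the members and 32.9% over all probes in the eye, and 26.2% and 26.0% in the hypothalamus, so the members as a whole were not far from other probes. For Grik3 the share was 96.5%, with slide means of -5.57, -6.05, -4.89 and -4.16. For Grin1 it was 85.3%, with slide means of -3.15, -3.38, -3.50 and -2.47, so all 4 eyes of slide 4 lay above the other 10. Gabrp and Gabre had slide means of -4.85 and -4.84 on slide 2 and of -3.06 and -3.37 on slide 4. Grin2d had slide means of 1.27 and 1.83 on slides 1 and 2 and of 2.64 and 2.67 on slides 3 and 4. Gabrd varied less, with a SD of 0.16 within genotypes. With slide as a random block, the counts of members called higher in each tissue were the same as without it in both genotypes.

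**Figure D4:**
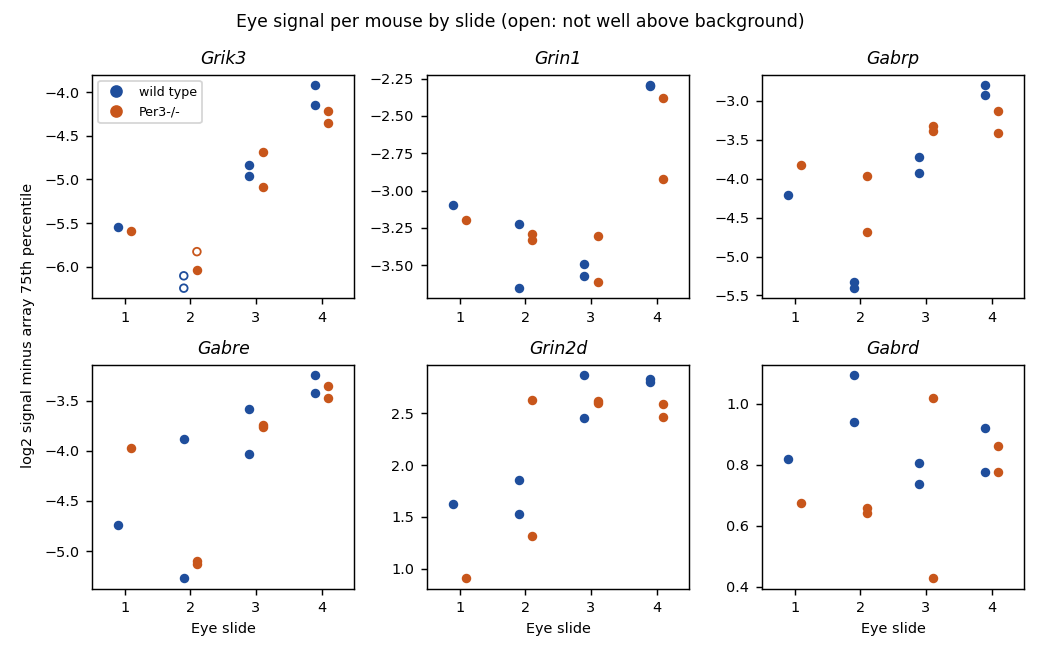
Log2 signal in the eye of each mouse, by slide, for 6 genes, relative to the 75th percentile of the array; WT mice are blue, Per3-/- mice are orange, and open circles are not well above background. Grik3, Gabrp and Gabre have their lowest slide mean on slide 2, Grin1 is highest on slide 4, and Gabrd shows no such steps.

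Between genotypes, no receptor subunit gene passed the test in either tissue. By limma 0 of 85 member probes had an adjusted p under 0.05 in the hypothalamus, with 1 at an unadjusted p under 0.05. The eye gave 0 of 85, with 2 at an unadjusted p under 0.05. Over all probes 17 (0.0413%) were called for hypothalamic samples and 8 (0.0194%) for eyes. At an unadjusted p under 0.05 by limma were 1161 and 743 of the 41174 probes. Without both arrays with pituitary signal, 0 member probes and 13 of all probes were called in the hypothalamus. The methods' t-test, slide as a block, the replicate number as a block, quantile normalization, normexp, a detection filter and the authors' log2 values also called 0 member probes in each tissue. The 95% intervals show what size of change in signal the arrays left possible, and genes near background are included. In the hypothalamus the interval lay within 0.5 log2 units of 0 for 37 of 43 genes and within 1 for all 43. In the eye it lay within 0.5 for 24 and within 1 for 37. The widest interval in the eye, that of Gabra5, reached 1.62 from 0 on the log2 scale.

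**Figure D5:**
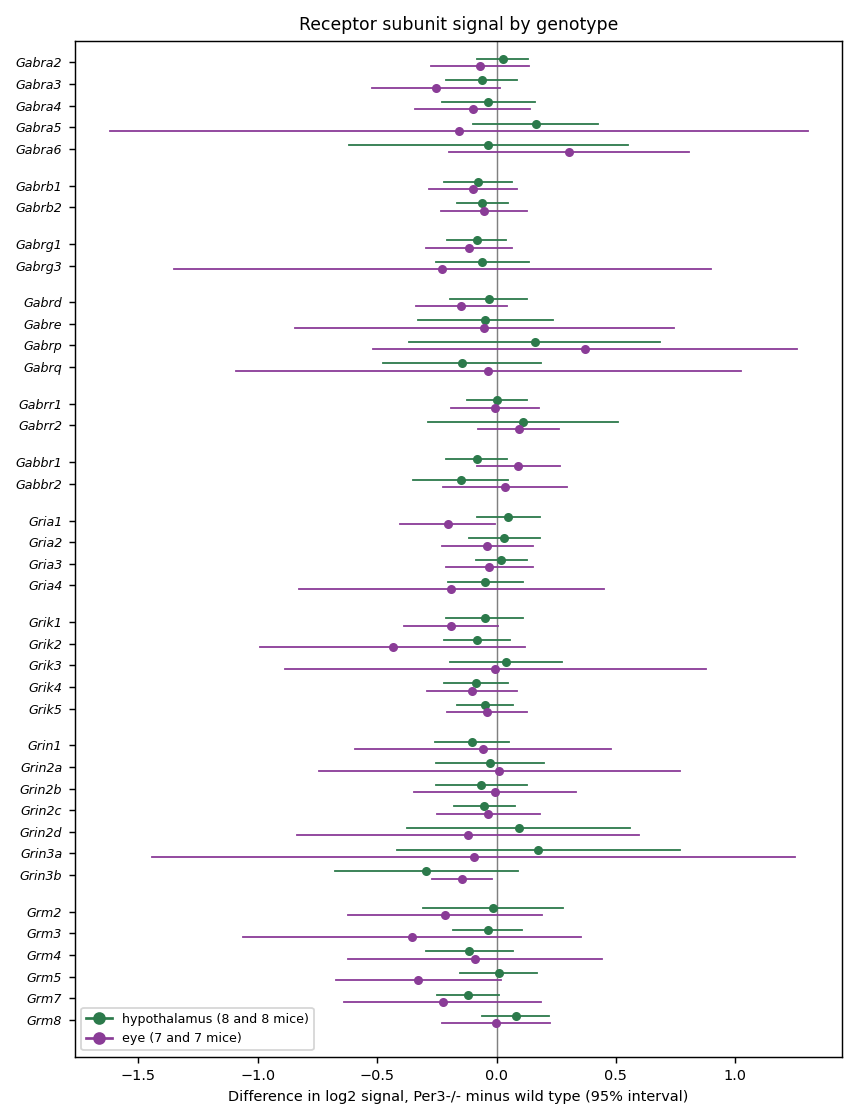
Difference in log2 signal between Per3-/- and WT mice for the brightest probe of 39 genes in the hypothalamus (green) and the eye (purple), with 95% intervals from limma. Most intervals span 0, those of Gria1 and Grin3b in the eye end just below it, and the intervals in the eye are wider for genes near background.

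Most small differences in the eye had a negative sign. The mean was lower in Per3-/- mice for 36 of 43 genes in the eye (median -0.09) and for 29 in the hypothalamus (median -0.04), against 48.1% and 56.1% of all probes and 6 and 12 of the 14 neuronal genes. With normexp background correction, which for the eye also took the spot median in place of the processed signal, the count in the eye turned to 16 of 43. Within slides 1 to 4 it was 29, 32, 17 and 28 in the eye and 30, 24, 18 and 25 in the hypothalamus, and with 1 mouse left out the count in the eye fell as low as 27 (without Per3-/- mouse 4). Without both arrays with pituitary signal, 25 of 43 were lower in the hypothalamus.

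Gabrd lies in distal chromosome 4, the chromosome that carries Per3, and was examined for that reason. Its probe starts at position 154759071 on chromosome 4 (mm9). In the hypothalamus the WT values ran from 3.33 to 3.78 (median 3.52) and the Per3-/- values from 3.22 to 3.68 (median 3.54), which overlap. The difference, Per3-/- minus WT, was -0.03 (95% interval -0.19 to 0.13), with a two-sided exact permutation p of 0.663, and 0.67 when labels were permuted within slides. Without both arrays with pituitary signal it was -0.03 (95% interval -0.20 to 0.15). In the eye the WT values ran from 0.74 to 1.1 (median 0.82) and the Per3-/- values from 0.43 to 1.02 (median 0.67), and 4 of 7 Per3-/- eyes lay below every WT eye. The difference was -0.15 (95% interval -0.34 to 0.04, two-sided exact permutation p = 0.105, and 0.13 within slides). Within the 4 slides it was -0.15, -0.37, -0.05 and -0.03 for eyes and -0.08, -0.15, 0.11 and -0.02 for hypothalamic samples. The intervals hold changes of up to 1.14-fold in the hypothalamus and 1.26-fold in the eye.

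Other genes close to Gabrd did differ. Within 1 Mb on each side lay 86 other probes, of which 5 (5.81%) were called in the hypothalamus, 1 higher and 4 lower in Per3-/- mice, and 30 had an unadjusted p under 0.05. They were AI428898 (-1.46), 2610204G22Rik (-0.92), a probe designed to an Ensembl transcript record (-0.41), Dvl1 (-0.28), a Wnt pathway scaffold, and Gltpd1 (0.59), named because they were called. Without both arrays with pituitary signal 3 of the 5 were called, all lower in Per3-/- mice, and Dvl1 and Gltpd1 were not. In the eye 0 of the 86 were called by limma, with 18 at an unadjusted p under 0.05. Of all 41174 probes, 1161 had an unadjusted p under 0.05 by limma in the hypothalamus and 743 in the eye. A smaller absolute difference than that of Gabrd was found for 16 of the 86 in hypothalamic samples and for 57 in eyes.

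The member probes of lowest p in the hypothalamus all had an adjusted p of 0.991 from limma. A further Gria2 probe ran from -3.80 to -3.39 (median -3.61) in WT and from -3.67 to -3.25 (median -3.47) in Per3-/- mice, a difference of 0.14 (SE 0.06). The reported Gria2 probe gave 0.03 (SE 0.07). Grm7 ran from -1.78 to -1.37 (median -1.59) in WT and from -1.86 to -1.59 (median -1.65) in Per3-/- mice, a difference of -0.12 (SE 0.06), and another Grm7 probe gave -0.16 (SE 0.09). A further Gabra3 probe ran from -2.16 to -1.60 (median -1.89) and from -2.30 to -1.90 (median -2.07), a difference of -0.16 (SE 0.08). The groups overlapped for each of these.

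In the eye the member probes of lowest p had adjusted p values that round to 1 (limma). Grin3b ran from -2.62 to -2.37 (median -2.50) in WT and from -2.75 to -2.55 (median -2.63) in Per3-/- mice, a difference of -0.15 (SE 0.06). Gria1 ran from 1.63 to 2.02 (median 1.88) and from 1.38 to 2.0 (median 1.67), a difference of -0.20 (SE 0.09). Grik1 ran from -2.31 to -2.0 (median -2.14) and from -2.62 to -2.06 (median -2.32), a difference of -0.19 (SE 0.09). Groups overlapped for all 3. Grm5 ran from -0.74 to 0.05 (median -0.34) and from -1.36 to -0.36 (median -0.54), a difference of -0.33 (SE 0.16). This difference became -0.21 without Per3-/- mouse 2. It was -0.15 with the replicate number as a block (6 pairs), a fit that also left out that mouse. Gabra3 ran from -2.15 to -1.35 (median -1.75) and from -2.38 to -1.85 (median -1.90), a difference of -0.25 (SE 0.13), and both overlapped between genotypes. With normexp the differences of Grin3b and Grik1 turned to 0.04 and 0.01.

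The genotype effect did not differ between the tissues for any member at an adjusted p under 0.05 in a joint fit of the 30 arrays with mouse as a random block (limma, 0 of 85 member probes, 1 at an unadjusted p under 0.05). Eye and hypothalamus were taken to come from 1 mouse where genotype and replicate number matched, and their deviations from the group means correlated at -0.12 to 0.16. Without the mouse block 0 members were called, and so it was without both arrays with pituitary signal. Over all probes 2 (0.00486%) were called, and 909 had an unadjusted p under 0.05 by limma. The lowest p belonged to Gria1, with a genotype effect of -0.20 in the eye and 0.05 in the hypothalamus (eye minus hypothalamus -0.26, 95% interval -0.47 to -0.04). Grm5 had a difference of effects of -0.34 (95% interval -0.68 to 0.01), and the Grik1 probe that was higher in the eye had 0.22. For Gabrd the difference of effects was -0.12 (95% interval -0.34 to 0.11).

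Genes that make, move and anchor the transmitters were compared in the same fits, from lists chosen by function. Beside the counts of each list in WT mice stand 33.3% of all probes called higher in the hypothalamus and 41.6% in the eye. Of 9 genes of GABA handling, 7 were higher in the hypothalamus and 1 in the eye in WT mice (median -2.08). Gad2, which makes GABA, differed by -4.14 (SE 0.09) and the GABA transporter Slc6a11 by -3.67 (SE 0.14), whereas the transporter Slc6a13 was higher in the eye by 1.76 (SE 0.12). Of 10 genes of glutamate handling, 6 were higher in the hypothalamus and 3 in the eye (median -1.44). The vesicular transporters took opposite sides, Slc17a6 (VGLUT2) with -4.92 (SE 0.10) and Slc17a7 (VGLUT1), the form of photoreceptors and bipolar cells, with 2.51 (SE 0.10). Slc1a7, a glutamate transporter of the retina, was higher in the eye by 5.78 (SE 0.18), with 2 of 8 WT hypothalami well above background, and the glial transporter Slc1a2 differed by -3.10 (SE 0.08).

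Of 14 partners of inhibitory receptors, 12 were higher in the hypothalamus and 1 in the eye (median -1.25; 11 and 0 in Per3-/- mice), with Kctd16, an auxiliary GABA-B subunit, at -2.66 (SE 0.26) and Kctd12 at 0.43 (SE 0.11). Of 29 partners of excitatory receptors, 23 were higher in the hypothalamus and 2 in the eye (median -1.06). The scaffold Shank3 differed by -4.60 (SE 0.09) and the AMPA auxiliary Cnih2 by -4.25 (SE 0.05), whereas Homer3 and Homer2, scaffolds of group I metabotropic receptors, were higher in the eye by 2.27 (SE 0.11) and 0.43 (SE 0.06). Between genotypes 0 genes of the 4 lists were called in either tissue (limma). At an unadjusted p under 0.05 there were 1 gene of GABA handling and 3 of glutamate handling in the hypothalamus, and 0 in the eye. Of all 41174 probes, 17 were called in the hypothalamus and 8 in the eye, and 1161 and 743 had an unadjusted p under 0.05.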

How the data were processed

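RNA of the hypothalamic block (8 WT and 8 Per3-/- mice) and of whole eye (7 and 7) was measured on 1-label Agilent 60-mer arrays. The deposited intensity per spot is the authors' background-subtracted signal from Agilent Feature Extraction software, with no normalization between arrays. The authors' deposited log2 values, relative to the array's 75th percentile and centred per probe, served only as an alternative. Here spots marked uneven or outlying were left out (36 to 91 per array), intensities were taken to log2 and the array's 75th percentile was subtracted. Groups came from the sample titles. Tests were limma 3.58.1 in R 4.3.3, two-sided, with Benjamini-Hochberg adjustment over 41174 probes, and exact permutation for Gabrd. On simulated data, changes of 1 log2 unit between genotypes were recovered for 76% of changed probes in hypothalamic samples (67% in eyes). Changes of 0.5 were recovered for 51% (37%). These rates are for 100 randomly chosen probes per size with independent noise and no slide effect, and were not obtained for the members. Python 3.11.15 did the rest. The reported probe of a gene is its brightest.

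The members and lists were chosen with earlier results of these data known. Values are named for Gabrd, Grin1, at most 8 genes per direction between tissues among those well above background throughout at least 1 tissue, the 5 lowest p per genotype comparison, the 3 lowest of the interaction, and 2 genes per direction and pathway list; others were chosen after their values were seen. Some genes enter the counts, but their own values are not reported here. Member names were matched to RefSeq by accession for 73 probes and by symbol for 12. Eyes of the same replicate number shared a slide, and their deviations from the group means correlated at 0.11 to 0.63 (6 pairs). Whether the number or the shared slide pairs the eyes was not tested. In the hypothalamus the correlations were -0.03 to 0.32 (8 pairs). Small groups keep the estimates imprecise. Each mouse and tissue had 1 array, so the spread behind the p-values mixes differences between mice with those of dissection, array and slide. These parts were not separated, except in the fits with slide as a block.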

Additional observations from a re-analysis of the deposited data

Results flagged for a closer look

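In 152 groups of 7 or 8 mice (38 genes, 4 groups), 11 had 1 mouse whose gap to the nearest other exceeded Dixon's 95% critical value, which chance gives for about 1 group in 20. In the hypothalamus of WT mice these were mouse 8 for Gabra4 (4.49, the others 4.06 to 4.27), mouse 1 for Gabrp (-7.22, the others -5.82 to -5.10), and mouse 6 for Grin1 (-0.86, the others -0.69 to -0.59). In the hypothalamus of Per3-/- mice they were mouse 8 for Grin1 (-1.21, the others -0.80 to -0.61), mouse 7 for Grik4 (2.03, the others 2.31 to 2.54), and mouse 1 for Gria1 (4.70, the others 4.90 to 5.08) and Grin3b (-3.25, the others -2.24 to -1.56). Mouse 1 is the one with the pituitary list at 7.19, and the part of that tissue in both values was not tested. In the eye they were WT mouse 3 for Gabra5 (-5.36, the others -7.70 to -6.94), Per3-/- mouse 2 for Grm5 (-1.36, the others -0.72 to -0.36), and mouse 8 of both genotypes for Gria4. The Gria4 value was -2.56 in WT mouse 8 (the others -1.30 to -0.76) and -2.70 in Per3-/- mouse 8 (the others -1.51 to -1.02), and both eyes lay on slide 4.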

How the results depend on the processing

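Scaling to the array median moved the split of all probes between the tissues of WT mice from 17125 higher in the eye and 13721 in the hypothalamus to 12547 and 20187, and the median of all probes from 0.15 to -0.27. The counts of members called stayed within 1.5 times under every setting run, but the count of members lower in Per3-/- eyes did not (36, and 16 with normexp). Gabbr2 turned from 0.32 to -0.11 with median scaling, and with normexp the genotype differences in the eye of Grin3b (0.0434) and Grik1 (0.0105) changed sign. The Gabrd difference in the hypothalamus turned to 0.00882 without Per3-/- mouse 3. It ranged from -0.0654 to 0.00882 with 1 mouse left out, and from -0.20 to -0.10 in the eye. With the replicate number as a block, Gabrd differed by -0.15 in the eye and -0.03 in the hypothalamus and 0 members were called. Calls over all probes fell from 8 to 1 in the eye and from 17 to 5 in the hypothalamus. In the eye this fit held only the 6 pairs with a number in both genotypes. The 8 and the 1 therefore come from unlike sets of mice. Normexp left 10 and 4 calls over all probes in hypothalamus and eye, and 0 in place of 2 for the difference of genotype effects between tissues. With the second brightest probe, chosen after seeing the data, 7 members were higher in the eye and 34 in the hypothalamus, Grik1 in place of Gabbr2 among the 7. Gabrd has 1 probe, so no other probe could be tried. Signals near background on some arrays limit Gabra5, Gabrg3, Gabrq, Grik2, Grik3, Grin2a, Grin3a and Grm4 in the eye.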
